A study of Mus musculus with 12 samples.

Results

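The nuclear regulators of mitochondrial biogenesis are the transcription factors and coactivators, made in the nucleus, that set how much mitochondrial protein and mitochondrial RNA a cell makes. They were followed in hearts of mice with mutant IDH2, the mitochondrial isocitrate dehydrogenase. The members were 10 genes chosen by name, Ppara, Ppargc1a, Ppargc1b, Esrra, Esrrb, Esrrg, Nrf1, Tfam, Tfb1m and Tfb2m, out of 19937 genes measured. All 10 were measured, and no filter on dim genes was applied. Each gene was read by the probe set that carried its symbol alone, or by the brightest such probe set where there was more than 1.

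RNA of whole hearts was hybridised to 12 Affymetrix arrays in 3 groups of 4, labelled control, IDH2 R140Q mutant and IDH2 R172K mutant. The strain of all mice was a mix of Balb/c, C57BL/6 and 129/sv. The mutant mice, at the age of 5 weeks, received 4-hydroxytamoxifen (2 mg, 3 days). The sources used here do not give the genotype of the control mice, any treatment they had, the construct that carries the mutation, the age at dissection or the sex. In each comparison with control, the drug and the mutation therefore cannot be told apart. Both mutant enzymes are known to make D-2-hydroxyglutarate from 2-oxoglutarate, and the series asks about cardiomyopathy in these mice.

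In muscle and heart, the coactivators PGC-1alpha (Ppargc1a) and PGC-1beta (Ppargc1b) bind no DNA by themselves and act through partners. PPARalpha (Ppara) is a lipid-sensing receptor that drives genes of fatty acid burning, the estrogen-related receptors (Esrra, Esrrb, Esrrg) are orphan nuclear receptors that drive genes of oxidative metabolism, and NRF1 (Nrf1) is known to act on genes of the respiratory chain and of mitochondrial transcription. The products of Tfam, Tfb1m and Tfb2m work inside the mitochondrion: TFAM packages mitochondrial DNA and bends its promoters, TFB2M opens the promoter for the mitochondrial RNA polymerase, and TFB1M methylates the small ribosomal RNA of the mitochondrial ribosome.

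Array medians lay between 74.8 and 78.0 on the deposited linear scale, and no 2 arrays were identical. The heart label held, with Myh6, the myosin heavy chain of the adult mouse heart, at a log2 intensity between 12.84 and 13.42 on all arrays. For Idh2 itself the mean log2 intensity was 12.74 ± 0.11 (SD, n = 4) in the control group, against 12.45 ± 0.14 for R140Q and 12.38 ± 0.33 for R172K. Neither difference passed in limma (adjusted p = 0.301 and 0.109), and the files do not show if its probes see mutant as well as normal RNA, so the values do not check the genotype labels. Some arrays stood apart. R172K replicate 4 gave the lowest value of all arrays for 17.9% of genes and the highest for 16.3%, R172K replicates 3 and 4 had estimated quality weights of 0.365 and 0.366, control replicate 3 was the highest in atrial markers (summed intensity 27412, against 676.5 to 20097 on the other arrays) and R140Q replicate 4 in lung markers (5172, against 350.5 to 415.8). Results are therefore given with and without these arrays where that matters. The labels number replicates but do not state that each came from its own mouse. Counts of hearts below are counts of arrays. The p-values thus cover only the spread among these arrays, which may be technical.

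In R172K hearts 3 of the 10 regulators fell and none rose. Tfb1m fell by 1.13 ± 0.21 (SE) on the log2 scale, to 0.456 of its control level. Ppara fell by 0.96 ± 0.19, to 0.514 of control, and Ppargc1b by 0.35 ± 0.09, to 0.783 of control. Among all 19937 genes, 13% changed in this comparison, 6.78% lower and 6.23% higher, where a change is an adjusted p under 0.05 in limma (two-sided, Benjamini-Hochberg over all genes). In R140Q hearts 0 of the 10 passed the limma test, where 2.2% of all genes did, and 1 of the 10 (Tfb1m) had an unadjusted p under 0.05, as 17% of all genes did. The median difference of the 10 was -0.36 in R172K and -0.049 in R140Q hearts, beside -0.00335 and 0.00302 for all genes. In R172K hearts 4 of the 10 had groups that did not overlap, all with the mutant lower, as 8.72% of all genes did, and 6 had an unadjusted p under 0.05, as 26.6% of all genes did.

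**Figure D1:**
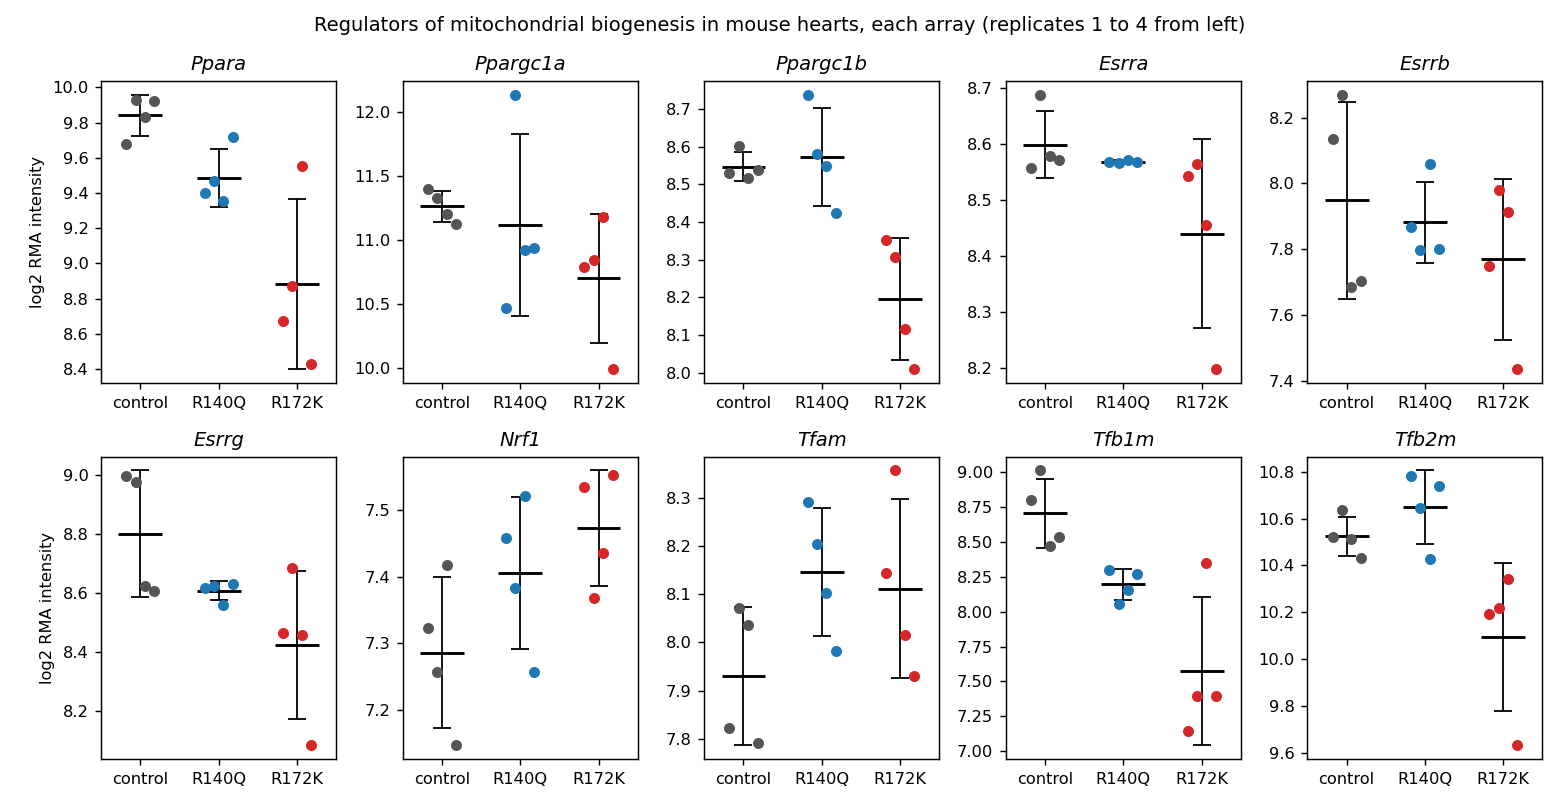
Log2 RMA intensity (vertical axes, each panel on its own scale) of the 10 regulators on each array, by group (horizontal axis). Points are arrays, with replicates 1 to 4 from left to right, horizontal lines are group means and bars are 1 SD of 4 arrays. For Ppara, Ppargc1b, Tfb1m and Tfb2m all 4 R172K points lie under the 4 control points.

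Tfb1m showed the largest difference of the 10 in both mutants. Its log2 intensity in the 4 control hearts was 8.80, 9.01, 8.47 and 8.53. It was 8.30, 8.06, 8.16 and 8.27 in the R140Q hearts, and 7.15, 7.40, 8.35 and 7.40 in the R172K hearts. Every mutant heart of either kind was thus below every control heart, and R172K replicate 3 was the one R172K heart that was not below the R140Q hearts. The R172K difference passed (limma adjusted p = 0.00613), and it kept passing in all 23 alternative fits, with log2 differences from -1.47 to -0.99. In R140Q hearts the difference was -0.51 ± 0.21 (95% interval -0.97 to -0.05), a level of 0.703 of control, with a limma adjusted p of 0.237. In R140Q hearts 7.04% of all genes had groups that did not overlap with the mutant lower. The R140Q difference passed without R172K replicate 3 (adjusted p = 0.0315), an array that bears on that comparison through the pooled variance alone. It also passed when all R172K arrays were left out of the fit (adjusted p = 0.0335). In all, the R140Q difference passed in 4 of the 23 alternatives and not in the other 19. With 1 array left out its limma adjusted p reached 0.473.

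Tfb2m, the related factor of mitochondrial transcription, lay on both sides of control in R140Q hearts and below it in R172K hearts. It read 10.52, 10.64, 10.51 and 10.43 in control, 10.78, 10.65, 10.43 and 10.74 in R140Q, and 10.19, 10.22, 10.34 and 9.64 in R172K hearts. All 4 R172K hearts were below all control hearts and below all R140Q hearts, while the R140Q and control values overlapped. The difference from control was 0.12 ± 0.13 (adjusted p = 0.719) for R140Q. For R172K it was -0.43 ± 0.13, a level of 0.743 of control, just outside the threshold (limma adjusted p = 0.0529). A second, dimmer probe set of Tfb2m gave -0.41 ± 0.11 for R172K and passed in a limma fit to all named probe sets (adjusted p = 0.0316). The mean of both probe sets passed too (adjusted p = 0.0381), as did the fit without R172K replicate 3 (-0.51, adjusted p = 0.0192). In all, the R172K difference passed in 5 of the 23 alternatives and not in the other 18. With 1 array left out its limma adjusted p reached 0.134. Between the mutants the Tfb2m difference was -0.55 ± 0.13 (limma adjusted p = 0.0614), with groups that did not overlap, as 4.64% of all genes had with R172K lower. It passed without R172K replicate 3 (adjusted p = 0.0156) and in 5 of the 23 alternatives in all, with a highest adjusted p of 0.166.

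Tfam, the third of the mitochondrial DNA factors, had a mean above that of control in both mutants. Its values were 7.82, 8.07, 8.04 and 7.79 in control, 8.29, 8.20, 8.10 and 7.98 in R140Q, and 8.14, 8.36, 8.02 and 7.93 in R172K hearts. All 3 groups overlapped. The difference from control was 0.21 ± 0.10 for R140Q (95% interval -0.01 to 0.44, adjusted p = 0.321) and 0.18 ± 0.10 for R172K (95% interval -0.04 to 0.41, adjusted p = 0.302). A fall of Tfam as large as that of Tfb1m in R172K hearts lies outside the second interval.

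NRF1 is known from mammalian cells to act on the promoters of Tfam, Tfb1m and Tfb2m, together with the ETS factor GABP. Promoter windows of 300 bases, 250 before and 50 after an annotated start, were available from RefSeq (GRCm38.p6) for 9 of the 10 genes. They were searched on both strands for GCATGCGC, a core of the NRF1 site, and for CGGAAGT, a core of the ETS site. The windows of the 3 mitochondrial factors and of Ppara are printed so that the promoters of genes that fell, Tfb1m and Ppara, can be set beside those of Tfb2m and Tfam. They run 5′ to 3′ on the gene's own strand, with matches in capitals.
Tfb1m, chr17:3557706-3558005, minus strand: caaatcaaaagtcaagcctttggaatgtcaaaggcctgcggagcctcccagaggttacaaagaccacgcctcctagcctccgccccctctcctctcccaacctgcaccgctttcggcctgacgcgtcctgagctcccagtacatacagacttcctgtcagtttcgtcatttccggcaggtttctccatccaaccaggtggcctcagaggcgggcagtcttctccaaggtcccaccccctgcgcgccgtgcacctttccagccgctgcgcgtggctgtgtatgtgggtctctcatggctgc
Tfb2m, chr1:179546227-179546526, minus strand: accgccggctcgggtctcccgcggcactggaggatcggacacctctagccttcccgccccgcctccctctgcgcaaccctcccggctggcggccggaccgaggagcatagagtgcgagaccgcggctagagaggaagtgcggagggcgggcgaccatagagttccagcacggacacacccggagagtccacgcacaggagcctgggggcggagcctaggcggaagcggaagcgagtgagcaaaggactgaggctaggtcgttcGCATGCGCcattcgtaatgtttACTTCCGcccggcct
Tfam, chr10:71237995-71238294, minus strand: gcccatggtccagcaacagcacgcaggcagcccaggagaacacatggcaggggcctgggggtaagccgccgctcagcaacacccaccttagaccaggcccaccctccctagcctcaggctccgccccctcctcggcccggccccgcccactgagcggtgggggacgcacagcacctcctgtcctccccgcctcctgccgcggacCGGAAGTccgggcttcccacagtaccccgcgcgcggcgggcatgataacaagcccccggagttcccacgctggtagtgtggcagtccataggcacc
Ppara, chr15:85735526-85735825, plus strand: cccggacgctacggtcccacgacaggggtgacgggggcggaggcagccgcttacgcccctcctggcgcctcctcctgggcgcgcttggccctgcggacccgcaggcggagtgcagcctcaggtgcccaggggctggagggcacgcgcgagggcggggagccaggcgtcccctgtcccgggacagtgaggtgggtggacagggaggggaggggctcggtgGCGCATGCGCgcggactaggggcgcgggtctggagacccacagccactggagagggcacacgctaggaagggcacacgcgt
The Tfb2m window held the NRF1 core at bases 264 to 271, counted from 1 at the 5′ end of the window, and the ETS core on the opposite strand at bases 286 to 292. The Tfam window held the ETS core at bases 205 to 211 and no NRF1 core. The Ppara window held the NRF1 core on both strands, at bases 220 to 227 and 222 to 229, overlapping matches that together spell GCGCATGCGC. Neither core was found in the Tfb1m window, which says only that these letters are absent from those 300 bases. The Esrra window, not printed, held the NRF1 core at bases 217 to 224. Over all 32851 promoter windows of this length, 2.71% held the NRF1 core and 6.42% the ETS core. The estrogen-related receptor site TNAAGGTCA (1.28% of windows) and the direct repeat of AGGTCA with 1 base between its copies (0.04%), the form bound by PPARalpha with its partner RXR, were found in no window of a member. A match is a description of letters, not a shown binding site.

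**Figure D2:**
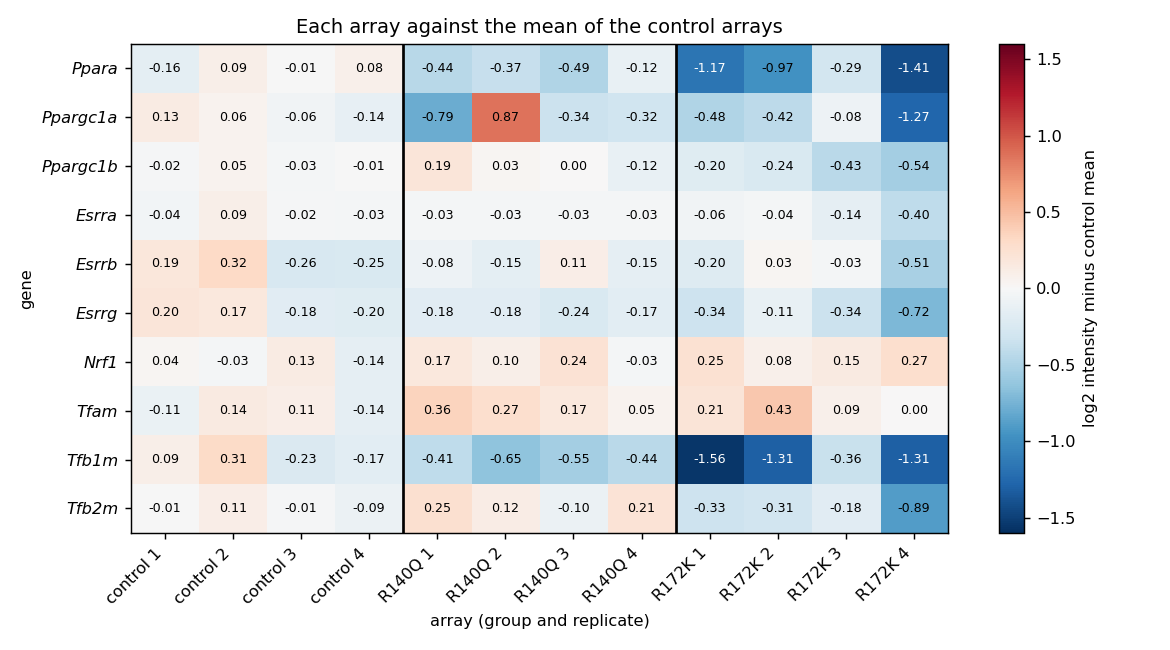
Log2 intensity of each regulator (rows) on each array (columns) minus the mean of the control arrays, as colour and printed value (blue lower, red higher). The columns of R172K replicates 1, 2 and 4 are dark for Ppara and Tfb1m (-1.56 to -0.97), R172K replicate 3 is pale for both (-0.29 and -0.36), and Ppargc1a is the one gene with both a strong blue and a strong red R140Q array.

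Ppara was the second regulator that fell. It read 9.68, 9.93, 9.83 and 9.93 in control, 9.40, 9.47, 9.35 and 9.72 in R140Q, and 8.67, 8.87, 9.55 and 8.43 in R172K hearts. The 4 R172K hearts were all below the control hearts, with replicate 3 the nearest. The mean of the R140Q hearts lay between those of the other groups, but their values overlapped both: R140Q replicate 4 reached into the control range, and R172K replicate 3 was above R140Q replicates 1, 2 and 3. The R172K difference of -0.96 ± 0.19 passed (limma adjusted p = 0.00746) and did so in all 23 alternatives, with values from -1.19 to -0.81. For R140Q the difference was -0.36 ± 0.19 (95% interval -0.76 to 0.05, limma adjusted p = 0.369). It passed with the R140Q and control arrays alone (adjusted p = 0.049). In all it passed in 2 of the 23 alternatives, and with 1 array left out its limma adjusted p reached 0.590. Between R172K and R140Q the difference was -0.60 ± 0.19 (adjusted p = 0.123), and without R172K replicate 3 it was -0.83 (adjusted p = 0.00226). That difference passed in 4 of the 23 alternatives, with a highest limma adjusted p of 0.310.

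Ppargc1b was the third. Its control values were close together at 8.53, 8.60, 8.52 and 8.54. The R140Q hearts read 8.74, 8.58, 8.55 and 8.42, on both sides of control, and the R172K hearts read 8.35, 8.31, 8.12 and 8.01, below all others. The R172K difference of -0.35 ± 0.09 passed (limma adjusted p = 0.0196). It did not pass without control replicate 2 (-0.33, adjusted p = 0.0587), and without R172K replicates 3 and 4 together it was -0.22 (adjusted p = 0.101). In R140Q hearts the difference was 0.025 ± 0.086 (95% interval -0.16 to 0.21). Between the mutants it was -0.38 ± 0.09 (limma adjusted p = 0.0517), just outside the threshold, and it passed in 5 of 23 alternatives, among them the one with the medians of the arrays set equal (-0.41, adjusted p = 0.0453).

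Ppargc1a, the better known coactivator, had the widest spread within a group of the 10 genes, among R140Q hearts. Its values were 11.40, 11.32, 11.20 and 11.13 in control, 10.47, 12.13, 10.92 and 10.94 in R140Q, and 10.79, 10.84, 11.18 and 9.99 in R172K hearts. R140Q replicate 2 was the highest of all 12 hearts and R172K replicate 4 the lowest. The other probe set of the gene placed the same hearts at its ends, with 11.49 in R140Q replicate 2 and 8.92 in R172K replicate 4, so the spread was read by different probes. The SD was 0.12 in control, 0.71 in R140Q and 0.50 in R172K. The differences from control were -0.15 ± 0.31 (95% interval -0.82 to 0.52) for R140Q and -0.56 ± 0.31 (95% interval -1.23 to 0.11, limma adjusted p = 0.275) for R172K. These intervals are wide, and a fall as large as that of Ppara in R172K hearts lies inside the second.

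The estrogen-related receptors did not pass in either mutant. Esrrg, the form known for its part in the switch of the newborn heart to oxidative metabolism, read 9.0, 8.97, 8.62 and 8.60 in control, 8.62, 8.62, 8.56 and 8.63 in R140Q, and 8.46, 8.68, 8.46 and 8.08 in R172K hearts. Control replicates 1 and 2 were high and the other 2 lay among the R140Q values. The R172K difference was -0.38 ± 0.12, a level of 0.770 of control (95% interval -0.64 to -0.11, limma adjusted p = 0.063), and it passed without R172K replicate 2 (adjusted p = 0.0372). In all it passed in 4 of the 23 alternatives, with a highest adjusted p of 0.246. For R140Q the difference was -0.19 ± 0.12 (adjusted p = 0.484).

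Esrra, a main partner of PGC-1alpha, was nearly flat. It ranged from 8.56 to 8.69 in control and stood at 8.57 in each of the 4 R140Q hearts, with an SD of 0.00252. R172K hearts read 8.54, 8.56, 8.46 and 8.20. The R172K difference of -0.16 ± 0.08 did not pass (limma adjusted p = 0.214), and without R172K replicate 4, the lowest heart, it was -0.078. Esrrb ranged from 7.69 to 8.27 in control, from 7.80 to 8.06 in R140Q and from 7.43 to 7.98 in R172K hearts. Its groups overlapped, and its differences were -0.067 ± 0.15 for R140Q and -0.18 ± 0.15 for R172K hearts.

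Nrf1 was 1 of 2 members, with Tfam, whose mean was higher than control in both mutants. It read 7.32, 7.26, 7.42 and 7.15 in control, 7.46, 7.38, 7.52 and 7.26 in R140Q, and 7.53, 7.37, 7.43 and 7.55 in R172K hearts, so the groups overlapped. The differences were 0.12 ± 0.078 (limma adjusted p = 0.503) and 0.19 ± 0.078 (adjusted p = 0.146). R172K replicate 4, the lowest of all arrays for 7 of the other members, was the highest of all for Nrf1.

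**Figure D3:**
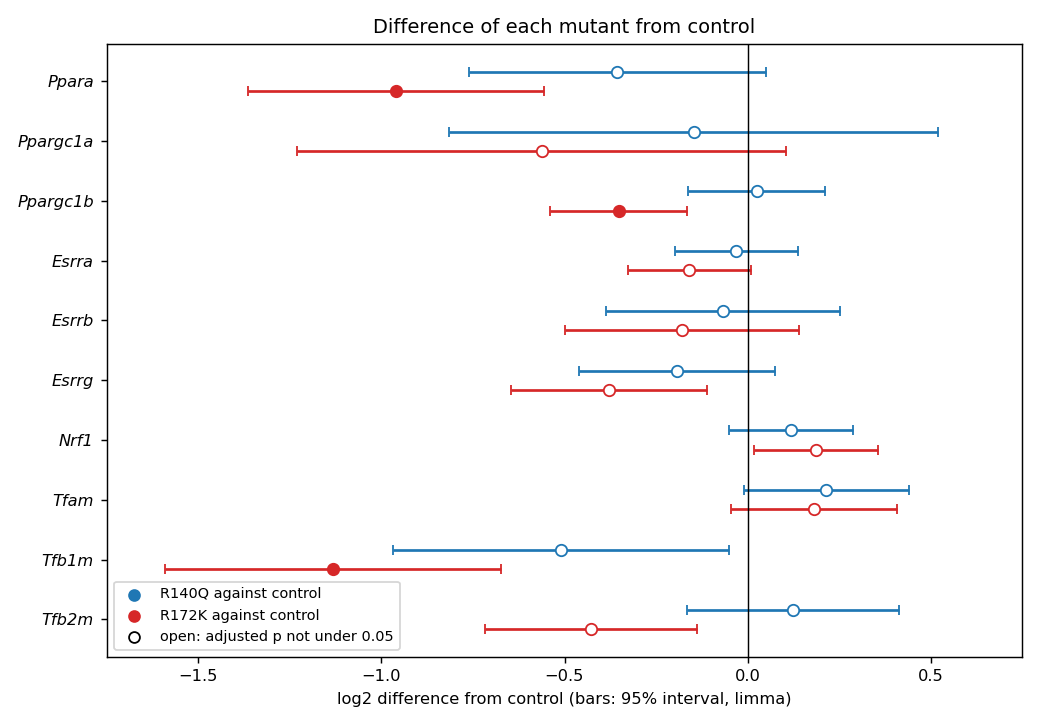
Log2 difference of each mutant from control for the 10 regulators (horizontal axis), with limma's 95% intervals. Blue is R140Q, red is R172K, and filled points passed at an adjusted p under 0.05. Only Ppara, Ppargc1b and Tfb1m in R172K are filled, and Nrf1 and Tfam are the only genes on the right of 0 in both mutants.

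When R172K was compared directly with R140Q, 0 of the 10 regulators passed in limma, against 1.48% of all genes, although 4 of them (Ppara, Ppargc1b, Tfb1m and Tfb2m) had an unadjusted p under 0.05, as 16.3% of all genes did. The mean of R172K was lower than that of R140Q for 9 of the 10 genes, with a median of -0.28, while 51.1% of all genes had a negative difference. The count depended on R172K replicate 3. Without it those 4 genes passed, with Tfb1m at -0.88 (adjusted p = 0.00245) and Ppara at -0.83, while the count over all 19937 genes went from 296 to 1577. The fit with array quality weights also called those 4, and 1774 of all genes. Cell markers differed between the mutants as well. Of 10 cardiomyocyte markers, 8 had a lower mean in R172K than in R140Q hearts (median -0.11). So did 7 of 8 endothelial markers (median -0.082) and all 8 lung markers (median -0.72), and none of these passed. All 6 atrial markers had a higher mean in R172K than in R140Q hearts (median 1.52, and Myl4 passed), as did all 8 fibroblast markers (median 0.58, and Pdgfra passed) and all 8 macrophage markers (median 0.44, none passed). The part of all these markers in the difference between the mutants was not tested. Both mutants were compared with the same 4 control arrays, so their differences from control are not independent of each other.

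**Figure D4:**
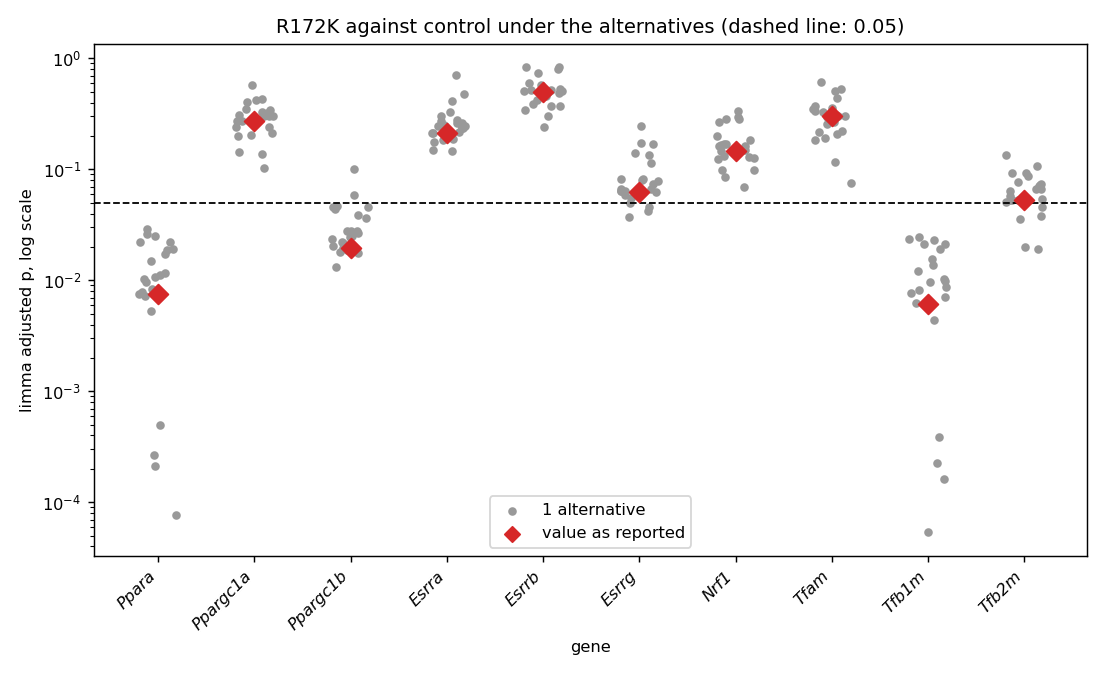
Limma adjusted p (vertical axis, log scale) for R172K against control for each regulator (horizontal axis). The diamond is the value as reported, grey points are the alternative fits, and the dashed line is 0.05. All points of Ppara and Tfb1m lie under the line, and those of Ppargc1b, Esrrg and Tfb2m lie on both sides of it.

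R172K replicate 4 stood lowest for most regulators. It was the lowest of the R172K hearts for 8 of the 10 regulators, and the lowest of all 12 for 7, against 17.9% of all genes. Its median distance from the control mean over the 10 genes was -0.63, compared with -0.27, -0.18 and -0.16 in R172K replicates 1, 2 and 3. Without it the R172K differences were -0.81 for Ppara (adjusted p = 0.0149), -1.07 for Tfb1m (adjusted p = 0.0155) and -0.29 for Ppargc1b (adjusted p = 0.0457), so the 3 calls did not rest on that array.

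Cell markers moved with these results. In bulk tissue, fewer cells of a type and less RNA per cell cannot be told apart. Beside the marker counts below, 6.78% of all genes fell and 6.23% rose in R172K hearts, and 2.2% passed in R140Q hearts. The summed intensity of 10 cardiomyocyte markers was 94057 to 99651 in control, 87824 to 92508 in R140Q and 75137 to 88543 in R172K hearts, with no overlap between control and either mutant. Of these markers 5 fell in R172K hearts, Myl2 (-0.54), Ryr2 (-0.49), Ttn (-0.31), Tnni3 (-0.27) and Pln (-0.26), with a median difference of -0.26 over the 10, and none passed in R140Q. Actn2 went the other way without passing (0.22), while the other 9 had a negative difference. Its R172K values, 13.01 to 13.29, were all above its control values, 12.82 to 12.99. Fibroblast markers summed to 8574 to 11126 in control, 9162 to 14665 in R140Q and 10818 to 22150 in R172K hearts. In R172K hearts 5 of 8 rose, Postn (2.68), Col1a1 (1.48), Col3a1 (1.26), Col1a2 (1.21) and Pdgfra (0.62). None passed in R140Q, where Postn had the largest difference (1.79) and 3 of the 8 were negative. Macrophage markers summed to 2070 to 3211 in control, 2593 to 3172 in R140Q and 2266 to 6388 in R172K hearts. In R172K hearts 2 of 8 rose, Fcgr3 (1.09) and Ctss (1.21), and none passed in R140Q. Endothelial markers summed to 7579 to 8083 in control, 9703 to 10067 in R140Q and 8322 to 9860 in R172K hearts, again with no overlap between control and either mutant. Of these 8 markers 3 rose in R140Q hearts, Esam (0.49), Kdr (0.45) and Cdh5 (0.45), and 2 in R172K hearts, Kdr (0.53) and Esam (0.43). Of 7 mural markers, those of pericytes and smooth muscle, 2 rose in R172K hearts, Pdgfrb (0.53) and Rgs5 (0.29), and none passed in R140Q. Another 3 had a lower mean in R172K than in control hearts, Acta2 (-0.51), Myh11 and Cnn1. None of those 3 passed, but without R172K replicate 3 the fit called 1 mural marker lower. All 6 atrial markers had a lower mean in R140Q than in control hearts (median -0.89). In R172K hearts all 6 were higher (median 0.57), and none passed in either mutant. Without control replicate 3, the highest array in these markers, the medians were -0.34 and 1.22, and 1 marker rose in R172K hearts. Without control replicate 2, 1 fell in R140Q hearts. R172K replicate 4 was lowest in the cardiomyocyte sum and highest in the fibroblast and macrophage sums. Among R172K hearts, replicate 3 was highest in the cardiomyocyte sum and lowest in the fibroblast and macrophage sums. With 1 array left out, calls over all genes ran from 1327 to 4157 in R172K and from 100 to 1015 in R140Q hearts. In the same fits for R172K, between 1 (without control replicate 1 or R172K replicate 1) and 6 cardiomyocyte markers fell. There, 3 to 5 fibroblast markers rose, and macrophage markers that rose numbered 0 to 6 (without R172K replicate 3). Endothelial markers that rose in R140Q hearts numbered 0 (without control replicate 1 or R140Q replicate 3) to 4 (without R172K replicate 3), with 1 without control replicate 3. Mural markers that rose in R172K hearts numbered 1 without control replicate 4 or R172K replicate 1. The part of these shifts in the lower levels of Ppara, Ppargc1b and Tfb1m, and in the R140Q values, was not tested.

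The genes around the regulators were counted from lists written for their roles. Of 20 partner factors, 3 fell in R172K hearts and none rose: the retinoid X receptors Rxra (-0.41 ± 0.08, limma adjusted p = 0.00772) and Rxrb (-0.28 ± 0.08, adjusted p = 0.0313), with which PPARalpha pairs on DNA, and the thyroid hormone receptor Thrb (-0.65 ± 0.18, adjusted p = 0.0373). That is 15% lower, against 6.78% of all genes. The list as a whole was about as low in R140Q hearts, where none passed. Its median was -0.13 there and -0.11 in R172K hearts, with 13 and 14 of the 20 negative. Between the mutants the median was 0.0067. Of 24 coregulators and upstream kinases measured, 5 fell and 2 rose in R172K hearts (20.8% lower and 8.33% higher, against 6.78% and 6.23% of all genes). Lpin1, a lipid phosphatase that also works with PGC-1alpha and PPARalpha, fell by 0.84 ± 0.22 (adjusted p = 0.0253) and Sirt3, the mitochondrial deacetylase, by 0.46 ± 0.12 (adjusted p = 0.0227). The histone deacetylase Hdac5 fell by 0.28, and Hdac3 rose by 0.27. The others, named after their values were seen, were the acetyltransferase Ep300 (-0.24) and the calcium-dependent kinase Camk2d (-0.25), which fell, and the growth kinase Mtor (0.45), which rose.

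Of 36 genes that copy, transcribe or process mitochondrial DNA and RNA, 7 fell and 1 rose in R172K hearts (19.4% lower and 2.78% higher). Mterf3, a factor that binds mitochondrial DNA and holds down its transcription, fell by 0.36 ± 0.06 (limma adjusted p = 0.00472). Fastk, which in mitochondria is needed for an RNA of complex I, fell by 0.56 ± 0.10 (adjusted p = 0.00508). Rrm2b, which supplies nucleotides for mitochondrial DNA, fell by 0.61 ± 0.14 (adjusted p = 0.0142), and the mitochondrial topoisomerase Top1mt fell by 0.46 ± 0.12 (adjusted p = 0.021). The gene that rose was Mtpap, the mitochondrial poly(A) polymerase (0.29, adjusted p = 0.0454), named after its value was seen. The median over the 36 was -0.11, or -0.062 without control replicate 2. Of 15 genes written for mitochondrial DNA itself, 2 had a probe set of their own and neither passed in limma, each with a p over 0.05 before adjustment too. They were ND3, a complex I subunit (-0.034 ± 0.050 in R172K, adjusted p = 0.735), and COX2, a complex IV subunit (-0.016 ± 0.056, adjusted p = 0.9).

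**Figure D5:**
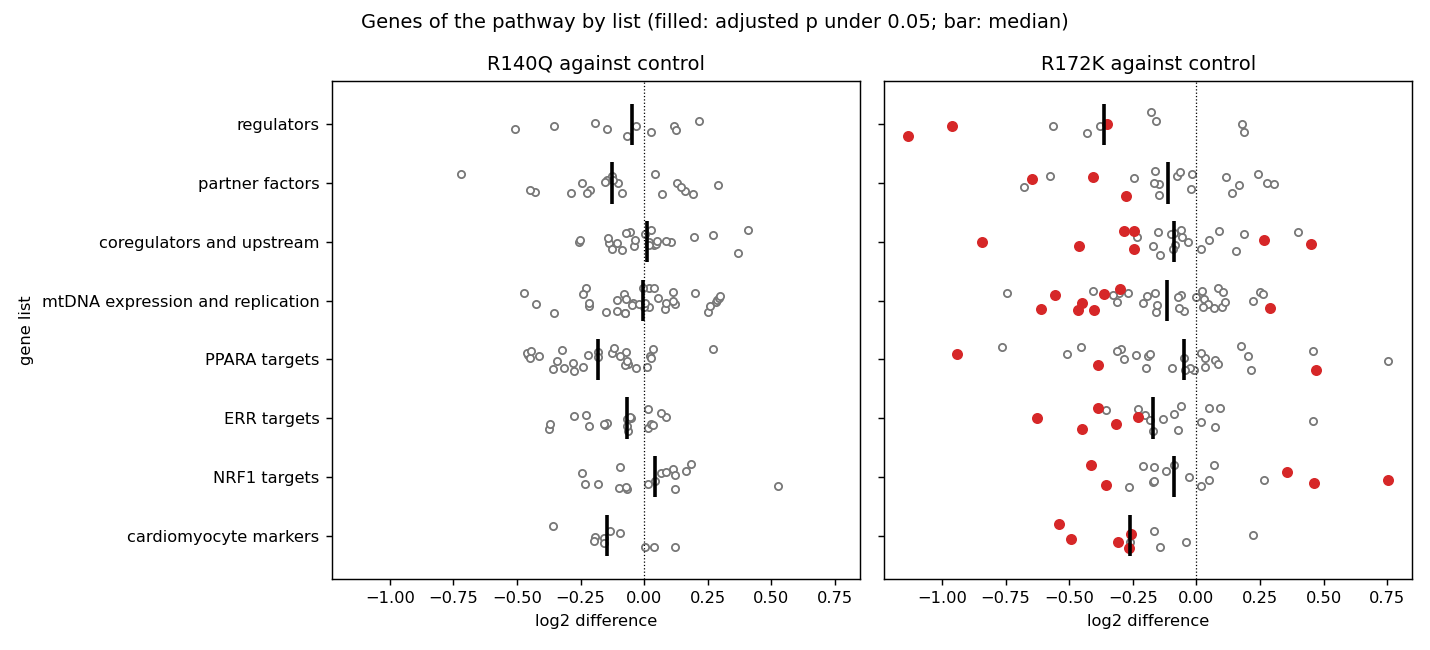
Log2 difference from control (horizontal axis) of each gene in 8 lists (rows), R140Q on the left and R172K on the right. Filled points passed at an adjusted p under 0.05, open points did not, and bars are list medians. No point is filled for R140Q, and for R172K 7 of the filled points stand on the right of 0 among the lists of partners, coregulators, mitochondrial DNA and RNA genes and targets.

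Known targets of the receptors were read as well. Of 28 PPARalpha targets, 2 fell and 1 rose in R172K hearts (7.14% lower and 3.57% higher, close to the share of all genes), with a median of -0.047. That median was -0.17 without R172K replicate 3 and 0.032 without R172K replicate 4. In R140Q hearts, where none of the 28 passed, the median was -0.18 and 23 had a negative difference, against 17 in R172K hearts. The mitochondrial carnitine palmitoyltransferase Cpt2 fell by 0.94 ± 0.23 (limma adjusted p = 0.019) and the medium-chain dehydrogenase Acadm by 0.39 ± 0.11 (adjusted p = 0.0429). Cpt1a, the liver form of the carnitine enzyme on the outer membrane, rose by 0.47 ± 0.11 (adjusted p = 0.0162), and it was also higher in R172K than in R140Q hearts (0.69 ± 0.11, adjusted p = 0.0228). Of 19 targets of the estrogen-related receptors, 5 fell and none rose (26.3% lower), with a median of -0.17, or -0.096 without R172K replicate 4. Those with the smallest p were Cox6a2, the muscle form of a complex IV subunit (-0.45 ± 0.07), the complex I subunit Ndufs1 (-0.63 ± 0.15), the malate dehydrogenase Mdh2 (-0.23 ± 0.06) and Acadm, which is on both lists. The fifth, Ndufv1, another complex I subunit (-0.32), was named after its value was seen.

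Of 17 NRF1 targets, 3 rose and 2 fell in R172K hearts (17.6% higher and 11.8% lower). The complex II subunits went opposite ways, Sdhc by -0.42 ± 0.08 (limma adjusted p = 0.00856) and Sdhd by 0.36 ± 0.08 (adjusted p = 0.0159). Cox6a1, the form of the complex IV subunit found in most tissues, rose by 0.76 ± 0.19 (adjusted p = 0.0216), while its muscle form Cox6a2 fell. Fmr1, an RNA-binding protein gene with an NRF1 site in its promoter in human cells, rose by 0.46 ± 0.10 (adjusted p = 0.00966). The second gene that fell, named after its value was seen, was the complex IV subunit Cox4i1 (-0.35).

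In R140Q hearts 0 genes of these lists passed in limma. Unadjusted p-values under 0.05 were seen for 8 of 20 partner factors, 3 of 24 coregulators, 13 of 36 mitochondrial DNA and RNA genes, 4 of 28 PPARalpha targets, 6 of 19 estrogen-related receptor targets and 3 of 17 NRF1 targets, where 17% of all genes had one. The counts of coregulators, PPARalpha targets and NRF1 targets are near that share. The counts of lower genes in R172K hearts moved with single arrays. With each array left out in turn they ran from 1 to 6 for partner factors, 0 to 5 for coregulators, 3 to 14 for mitochondrial DNA and RNA genes, 0 to 6 for PPARalpha targets, 1 to 7 for estrogen-related receptor targets and 1 to 3 for NRF1 targets. The highest count came without R172K replicate 3 for each of these lists except the coregulators, and the lowest came without R172K replicate 1, alone or level with other arrays, for all 6. Leaving out control replicate 2 gave the same lowest count for 4 of them, and control replicate 1 for 3. Calls over all genes moved in the same fits, from 1327 to 4157, higher and lower together. Without R172K replicate 1, 3.84% of all genes were lower, against 6.78% with all arrays. The movement of the list counts is thus not particular to these lists.

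Genes whose profile over the 12 hearts was most like that of a regulator that fell were found by the root mean square difference of log2 values, each gene centred on its mean. Predicted genes and genes with only a clone or accession name were left out, so the nearest are nearest among the rest. For Ppara, whose own SD over the arrays was 0.50, the nearest were Hint2, a nucleotide hydrolase of mitochondria (0.125), Eef1akmt1, a methyltransferase that acts on a translation factor (0.127), and Cox7a1, the muscle form of a complex IV subunit (0.129). For Tfb1m, with an SD of 0.58, they were the semaphorin receptor Plxnb1 (0.154), the potassium channel Kcnd2 (0.155) and the exchange factor Fgd4 (0.159). For Ppargc1b, with an SD of 0.21, they were Pdrg1 (0.0844), Uqcc2, an assembly factor of complex III (0.0867), and Jarid2, a Polycomb partner (0.0879). The 6 genes nearest to Ppara and Tfb1m all fell in R172K hearts, by 0.79 to 1.19, which follows from how they were picked.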

How the data were processed

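Hearts were profiled on 12 arrays, 4 each of control, IDH2 R140Q and IDH2 R172K mice, grouped by their titles. The authors deposited 1 intensity per probe set and array, made with RMA (background correction, normalization to a common distribution and probe summary), per the submitters' processing notes. No version of RMA is given in those notes. The deposited intensity was on a linear scale, judged from its values (4.43 to 17591), so log2 was taken with no pseudocount. After RMA a shift of most genes together is not visible, and no detection calls were used.

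The platform table gave 1 symbol to 21640 of the 34760 probe sets, several to 1321 and none to 11799, which left 19937 genes. Where a gene had several, as 954 genes did, 2 of them members, the probe set with the highest mean was used. Group means were fitted to all 12 arrays with limma 3.58.1 in R 4.3.3 (lmFit, eBayes), with 9 residual and 3.54 prior degrees of freedom, and p-values were adjusted (Benjamini-Hochberg) over all genes. The number of arrays limits the precision. The fit was tested on simulated data. The members and lists were chosen with earlier results of these data known. Named were all members, Idh2, up to 4 changed genes of each list with the smallest p, and the 3 genes nearest in profile to each member that changed. The search for the nearest left out predicted genes and those with only a clone or accession name. Motifs were picked after the promoter windows had been read. Alternatives varied the arrays, replicate block, probe set, filter, normalization, pseudocount (16), variance model, weights and threshold. The fit without R172K replicates 3 and 4 was added after seeing the data.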

Additional observations from a re-analysis of the deposited data

Results flagged for a closer look

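Of 30 sets of 4 arrays (10 genes in 3 groups), 2 held an array far from the others by Dixon's test, which flags about 1 set in 20 by chance. Control replicate 2 was high for Esrra, at 8.69 against 8.56 to 8.58 in the other control hearts, and its gap was 0.833 of the range of the group. R140Q replicate 3 was low for Esrrg, at 8.56 against 8.62 to 8.63, with a gap of 0.845 of the range. Both groups span a narrow range.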

How the results depend on the processing

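In R172K against control, the calls of Ppara and Tfb1m held in all 23 alternatives. The count of regulators called there, 3, became 5 without the dimmer genes and 5 with array weights, and ran from 2 to 4 with 1 array left out. The fit without the dimmer genes tested, and adjusted p over, only genes with a mean above the median gene. In R140Q against control, where none was called, it was 2 with the arrays of those 2 groups alone, 2 without R172K replicates 3 and 4, 1 without control replicate 3, R140Q replicate 4 and R172K replicate 3 together, and 0 to 1 with 1 array left out. Between the mutants, where none was called, it was 2 without the dimmer genes, 2 with array medians set equal, 1 with a pseudocount of 16, 4 with array weights, 2 without those 3 arrays, 3 without R172K replicates 3 and 4, and 0 to 4 with 1 array left out.

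Over all genes, 439 were called for R140Q, 2593 for R172K and 296 between the mutants. With 1 array left out these ran from 100 to 1015, 1327 to 4157 and 1 to 1577. The replicate block gave 196 for R140Q and 11 between the mutants. Correlations of same-numbered arrays ran from -0.34 to 0.15. The labels do not say if the numbers pair the arrays. With so few arrays per group, some of which stood apart, these correlations cannot decide it. With the block Esrrg also passed in R172K (adjusted p = 0.0461), and no other call among the regulators changed. Array weights gave 1651, 4491 and 1774. The arrays of the 2 groups alone gave 1342 for R140Q and 9 between the mutants. An adjusted p under 0.01 gave 73, 773 and 1, and a fold of at least 1.5 gave 193, 892 and 112. Without R172K replicates 3 and 4, 1677 were called for R140Q and 1689 between the mutants. Between the mutants the count was also 449 without the dimmer genes, 179 with the trend and robust variance model and 806 without the 3 arrays above. The 449 are out of the brighter genes alone, so they are a larger share than the same count over all genes would be. With array medians set equal, 288 were higher and 185 lower for R140Q in place of 216 and 223, and 78 and 330 between the mutants in place of 97 and 199.

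Some small differences that had not passed changed sign. With 1 array left out, R140Q against control ran from -0.15 to 0.041 for Esrrb, from -0.49 to 0.068 for Ppargc1a and from -0.030 to 0.075 for Ppargc1b, and the difference between the mutants ran from -0.12 to 0.027 for Tfam. The latter was 0.035 with array weights and 0.10 without R172K replicates 3 and 4. The cause of these changes was not tested. No detection calls were used, so dim readings may lie at background.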

Other observations

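Genes with the NRF1 core GCATGCGC in a promoter window numbered 667 among the 15613 measured genes that had a window, counted after the windows had been read. In R172K hearts 68 of them were higher (10.2%) and 58 lower (8.7%), and the shares over all genes with a window were 6.47% and 6.99%. Of 1557 genes with the ETS core CGGAAGT, 138 were higher (8.86%) and 129 lower (8.29%). Of 182 genes with the estrogen-related receptor site TNAAGGTCA, 11 were higher (6.04%) and 10 lower (5.49%). The median differences of the 3 sets were 0.013, 0.0284 and 0.0003, beside -0.0034 over all genes with a window. In R140Q hearts 5 genes with the NRF1 core were higher (0.75%) and 6 lower (0.9%). The shares over all genes with a window were 1.12% and 1.1%. For the ETS core 18 were higher (1.16%) and 13 lower (0.83%). For TNAAGGTCA 0 were higher and 1 lower (0.55%). These are counts without a test, and promoters of these genes may share other features.

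Cidea, a gene of brown fat and of lipid droplets, rose by 0.62 in R140Q and by 1.01 in R172K hearts (limma adjusted p = 0.049 and 0.0021). With 1 array left out, the R140Q call was lost without any control array, any R140Q array, or R172K replicate 1 or 2. Prdm16, another brown fat gene, fell by 0.43 in R172K hearts (adjusted p = 0.00519). Ucp1, the defining gene of brown fat, stayed between 4.75 and 5.66 in log2 on the 12 arrays.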
